A study of Mus musculus with 2 samples.

Results

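A set of 9 genes chosen from these data were followed across the leukocytes of dust mite-treated mouse skin: Nnt, Wdfy1, Vill, Casp6 and Mxd1, which had more transcript in the knockout library, and Dhx29, Fam177a, Cdk2ap1 and Xlr3b, which had less. They were proposed because their knockout to wild-type ratio appeared to lie on a single side in each cell class and in cell-free RNA, as candidates for a difference of strain or of handling. They are 9 of the 27998 genes in the deposited count tables, found by their symbols. The ratios that chose them are therefore given as a description, with no test.

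The 2 libraries were IL31RAKO, from mice lacking the receptor alpha chain for the itch cytokine IL-31, and WT, from mice with an intact receptor. The labels give the strain of both as C57Bl/6, without the substrain, and give no age. Each library held live CD45+ cells, leukocytes, sorted from the pooled dorsal neck skin of 4 mice. The skin of both groups had received Biostir ointment, which contains house dust mite from Dermatophagoides farinae, for 3 weeks, with 2% SDS applied ahead of each dose. With 1 library a group there is no replicate, so differences between mice, dissections, sorts and libraries cannot be told apart from genotype. Intervals below are exact 95% intervals from binomial or Poisson counts and cover counting error only.

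The IL31RAKO library held 71333292 UMIs (tags that count captured RNA molecules) and 14619 kept cells, with a median of 3181 UMIs a cell. The WT library held 57000499 UMIs and 11934 kept cells, with a median of 2918.5. The leukocyte gene Ptprc was detected in 75.1% of IL31RAKO cells and 72.3% of WT cells. The male-specific transcript Ddx3y had 3494 UMIs in IL31RAKO cells and 2774 in WT cells, while Xist had 0 and 1, so both pools read as male. The libraries shared 247 kept barcodes, against 236.6 for a random draw. Il31ra itself had 26 UMIs in IL31RAKO cells and 11 in WT cells, with an interval of the ratio of 0.850 to 3.99. These are 3′ tags, and the labels do not say which exons were deleted, so they do not check the knockout.

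The genes have unlike roles. Nnt encodes the nicotinamide nucleotide transhydrogenase of the inner mitochondrial membrane, which makes NADPH for mitochondrial redox defence, and the C57BL/6J substrain is known for a deletion within it. Wdfy1 encodes a FYVE and WD40 domain protein of early endosomes described as an adaptor in Toll-like receptor signalling. Vill encodes villin-like protein, of the gelsolin and villin family of actin-binding proteins. Casp6 encodes an executioner caspase that cleaves lamin A, and Mxd1 a partner of MAX that opposes MYC and is known to rise as myeloid cells mature. Dhx29 encodes an RNA helicase that helps the small ribosomal subunit scan structured leaders, and Cdk2ap1 a CDK2-associated protein that is also a subunit of the NuRD chromatin complex. Xlr3b belongs to an imprinted, multicopy gene cluster on the X chromosome, and Fam177a is little characterised.

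RefSeq promoter windows on GRCm38.p6 were matched for 6 of the 9 genes. Those of 3 genes are shown: Mxd1, which had the most UMIs of the genes past 1.5-fold, Xlr3b, which had the lowest pooled ratio, and Cdk2ap1, which was lower in each gate where it could be measured. Each is the 250 bases before the start of the RefSeq entry, 5′ to 3′ on the strand of the gene, and capitals mark CCAAT on either strand, the letters of the box bound by NF-Y. The Mxd1 window is chr6:86669160-86669409 on the minus strand, the Xlr3b window chrX:73191929-73192178 on the plus strand and the Cdk2ap1 window chr5:124354629-124354878 on the minus strand. The RefSeq start of Cdk2ap1 lies 8.45 kb inside the longer GENCODE gene whose position is given further on, so the window is not upstream of that gene's outermost start.
Mxd1: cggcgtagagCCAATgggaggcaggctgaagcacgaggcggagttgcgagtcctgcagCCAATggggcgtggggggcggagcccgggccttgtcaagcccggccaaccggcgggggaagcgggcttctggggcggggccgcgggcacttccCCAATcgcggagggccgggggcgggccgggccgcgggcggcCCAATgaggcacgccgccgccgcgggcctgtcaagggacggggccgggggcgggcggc
Xlr3b: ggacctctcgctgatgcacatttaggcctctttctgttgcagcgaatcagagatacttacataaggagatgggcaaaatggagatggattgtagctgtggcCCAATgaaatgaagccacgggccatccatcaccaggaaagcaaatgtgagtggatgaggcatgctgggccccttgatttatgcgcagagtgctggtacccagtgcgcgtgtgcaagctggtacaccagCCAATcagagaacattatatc
Cdk2ap1: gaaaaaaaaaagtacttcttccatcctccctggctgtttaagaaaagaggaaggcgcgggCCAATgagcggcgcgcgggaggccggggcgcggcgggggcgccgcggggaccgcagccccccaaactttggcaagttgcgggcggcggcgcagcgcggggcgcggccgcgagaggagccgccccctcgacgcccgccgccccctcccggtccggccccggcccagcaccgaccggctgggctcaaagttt
The Mxd1 window held 4 copies of CCAAT, the Xlr3b window 2 and the Cdk2ap1 window 1. Dhx29 held 1, and Casp6 and Vill held none. Of 32851 windows of the same length over all genes in the table, 33.8% held at least 1 copy, 10.1% held 2 or more and 0.840% held 4 or more. Among the matched genes, 1 of the 3 that were higher and 3 of the 3 that were lower thus held the motif, which is a description of 6 windows. GC content was 78.4% for Mxd1, 50.4% for Xlr3b and 72.4% for Cdk2ap1, with a median over all windows of 52.4%. Nnt, Wdfy1 and Fam177a were not matched.

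Cells were sorted into classes by marker genes, none of which is among the 9, and 12 classes had at least 50 cells in each library. The classes covered CD8 T cells (leading genes Cd8b1 and Cd8a), CD4 T cells (Cd4, Cd40lg), regulatory T cells (Foxp3, Tnfrsf4), dermal γδ T cells (Cd163l1, Blk), a T cell gate marked by Cd7, Nkg7 and Fcer1g, other T cells, conventional type 2 dendritic cells (cDC2; Cd209a, Mgl2), Langerhans cells (Cd207, Epcam), macrophages (C1qa, Pf4), monocytes (Ly6c2, Chil3), neutrophils (S100a8, Retnlg) and basophils (Mcpt8, Fcer1a). The leading genes named, apart from Cd40lg, were themselves used in the gates, so they do not check the classes. Casp6 stood among the 10 leading genes of the cDC2 gate. A class counted as measured for a gene where it held at least 10 of its UMIs over both libraries.

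The name under which the genes were proposed held for 2 of them. Only Fam177a and Cdk2ap1 lay on a single side in each class measured and in barcodes of 10 to 50 UMIs, where those held 10 or more UMIs of the gene. Over all genes measured in 5 or more classes, 259 of 10408 (2.49%) met that rule, 110 higher (1.06%) and 149 lower (1.43%) in IL31RAKO. Without the 10 to 50 UMI barcodes the rule was met by 3.06% of genes and by the same 2 of the 9, and with barcodes of 51 to 200 UMIs in their place by 2.6% and again by those 2. Of 93 ratios of a gene in a class, 84 lay on the side of the pooled ratio and 9 lay against it. The interval excluded 1 for 41 of the 84 and for 0 of the 9. Over all 103553 such pairs of a gene and a class, 61.3% lay on the pooled side, 9.95% had an interval that excluded 1 on that side and 2.62% one that excluded 1 on the other. Counting the side held by most classes, 7 of the 9 had at most 1 class against it, as did 12.1% of genes. Against the pooled side were Nnt, Vill, Casp6 and Xlr3b in CD4 T cells, Wdfy1 in the Cd7 Nkg7 Fcer1g T gate, Dhx29 in macrophages and Langerhans cells, Xlr3b in dermal γδ T cells, and Mxd1 in neutrophils. The CD4 T gate was small, with 200 IL31RAKO and 229 WT cells. Over all kept cells, 6 of the 9 were past 1.5-fold, against 13.3% of the 13307 genes with 50 or more UMIs (5.37% higher and 7.92% lower). Both comparisons were used in choosing the genes. The median log2 ratio of all these genes was -0.10, and the pooled ratios given are not corrected for that shift. Both calls moved with the settings. After thinning each cell to 1000 UMIs, 0 of the 9 lay on a single side throughout, while under 5 other settings 4 or 5 of them did. Of the 6 past 1.5-fold, Vill and Xlr3b stayed past it under each alternative run. Thinning gave 1.44 for Nnt and 1.31 for Wdfy1, scaling by the median gene ratio gave 0.711 for Fam177a, and a fixed mix of classes gave 1.47 for Mxd1.

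**Figure D1:**
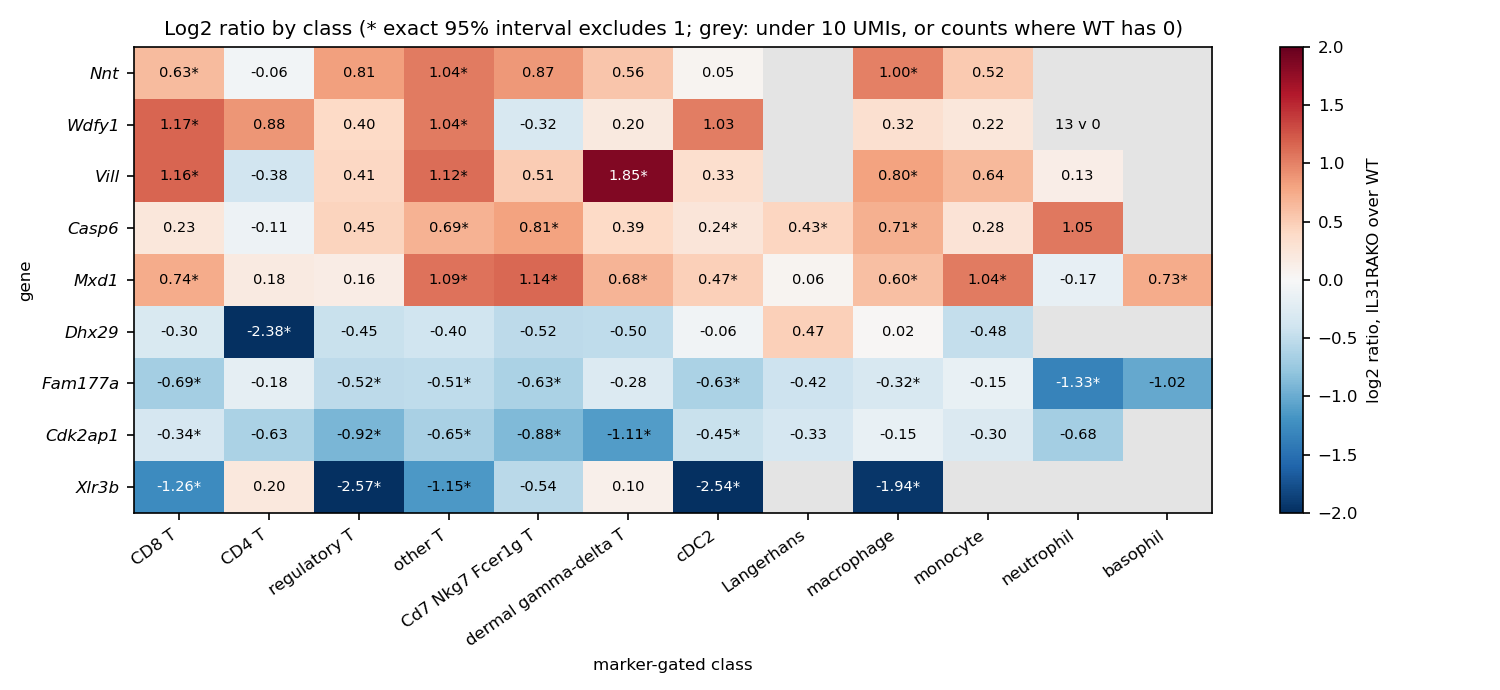
Log2 ratio of IL31RAKO over WT for each gene (down) in each marker-gated class (across), red for higher and blue for lower in IL31RAKO. Stars mark exact 95% intervals that exclude 1, grey marks classes with fewer than 10 UMIs, 13 v 0 gives UMIs in IL31RAKO and WT where WT had none, and the Fam177a and Cdk2ap1 lines are blue in each class measured.

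Levels are in CPM, UMIs scaled to a total of 1000000 for the cells summed. Nnt, the mitochondrial transhydrogenase, had 625 UMIs in IL31RAKO cells and 274 in WT cells, or 10.2 and 5.93 CPM, a ratio of 1.72 (interval 1.49 to 1.99). No cell of either library held more than 2 of its UMIs. Macrophages had 12.3 CPM in IL31RAKO and 6.14 in WT (139 and 25 UMIs), and other T cells had 9.34 and 4.53 (61 and 35 UMIs). CD8 T cells had 11.0 in IL31RAKO and 7.10 in WT (63 and 37 UMIs). These were the 3 of its 9 measured classes whose interval excluded 1. In cDC2 the levels were 5.50 and 5.30 CPM in IL31RAKO and WT, a ratio of 1.04 whose interval of 0.526 to 2.08 also holds the pooled value. Barcodes of 51 to 200 UMIs, read as free RNA, had 8.12 CPM in IL31RAKO and 4.90 in WT, beside class levels in WT of 4.53 in other T cells, 5.30 in cDC2 and 6.14 in macrophages. Expression in these WT classes cannot be told apart from free RNA by the levels alone. A C57BL/6J-type deletion was not examined, because 3′ counts give no view of the deleted exons. The annotation also has a further Nnt model on the same strand, overlapping 73425 bases, that the count tables do not list.

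Wdfy1, the endosomal adaptor, had 615 UMIs in IL31RAKO cells and 296 in WT cells, or 10.0 and 6.40 CPM, a ratio of 1.57 (1.36 to 1.80). The ratio was 2.25 in CD8 T cells (84 IL31RAKO and 34 WT UMIs) and 2.06 in other T cells (80 and 46), the 2 classes whose interval excluded 1. In macrophages it was 1.25 (83 IL31RAKO and 24 WT UMIs), with an interval that included 1. The Cd7 Nkg7 Fcer1g T gate ran the other way, with 12 IL31RAKO and 24 WT UMIs and a ratio of 0.801 (0.365 to 1.67). Neutrophils had 13 UMIs in IL31RAKO and 0 in WT, but the WT neutrophils held so few UMIs in all (220193, against 1205421 in IL31RAKO) that the interval still reached down to 0.557; this class is counted on the higher side. At its 5′ end 126 bases of Wdfy1 overlap Mrpl44 on the opposite strand, and Mrpl44 had a ratio of 0.908.

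Vill, the villin-like actin-binding protein, had 1064 UMIs in IL31RAKO cells and 401 in WT cells, or 17.3 and 8.67 CPM, a ratio of 2.00 (1.78 to 2.25). Monocytes held the highest level of the 12 classes in each library, at 45.1 CPM in IL31RAKO and 28.8 in WT. The widest gap was in dermal γδ T cells, at 26.3 in IL31RAKO and 7.28 in WT (21 and 20 UMIs), a ratio of 3.62 (1.86 to 7.03). The interval also excluded 1 in CD8 T cells (2.24), other T cells (2.18) and macrophages (1.75). In CD4 T cells it had 4 IL31RAKO and 6 WT UMIs, too few to give a side.

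Casp6, the lamin-cleaving caspase, had 8688 UMIs in IL31RAKO cells and 4872 in WT cells, or 142 and 105 CPM, a ratio of 1.34 (1.30 to 1.39). Its level differed more between classes than between libraries. cDC2 had 409 CPM in IL31RAKO and 347 in WT, and Langerhans cells 259.9 and 192, whereas CD8 T cells had 48.0 and 40.9. The ratio was 1.75 in the Cd7 Nkg7 Fcer1g T gate, 1.63 in macrophages and 1.61 in other T cells, and 1.18 in cDC2, the class with the most counts. In cells that passed several gates it was 1.04 (0.978 to 1.10), and in cells that passed none it was 1.85.

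Mxd1, the MYC antagonist, had 5946 UMIs in IL31RAKO cells and 2320 in WT cells, or 96.9 and 50.2 CPM, a ratio of 1.93 (1.84 to 2.03). Neutrophils had by far its highest level, 969.8 CPM in IL31RAKO and 1090.0 in WT, and they were the single class with a ratio under 1 (0.890, 0.774 to 1.03). Basophils came next, at 513 CPM in IL31RAKO and 308 in WT. In each of the other 11 classes the ratio was above 1, and its interval excluded 1 in 8: the Cd7 Nkg7 Fcer1g T gate (2.21), other T cells (2.13), monocytes (2.06), CD8 T cells (1.67), basophils (1.66), dermal γδ T cells (1.60), macrophages (1.52) and cDC2 (1.39). Langerhans cells (1.04), regulatory T cells (1.11) and CD4 T cells (1.13) had intervals that included 1. Neutrophils made up 5.62% of IL31RAKO cells and 1.53% of WT cells, and held 19.7% of the Mxd1 UMIs in IL31RAKO and 10.3% in WT. With the neutrophil gate left out the pooled ratio was 1.76.

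Fam177a was lower in IL31RAKO in 12 of 12 classes. It had 2991 UMIs in IL31RAKO cells and 3403 in WT cells, or 48.7 and 73.6 CPM, a ratio of 0.662 (0.630 to 0.696). The class ratios ran from 0.398 in neutrophils (37 IL31RAKO and 17 WT UMIs) to 0.901 in monocytes (47 and 25), and 7 intervals excluded 1. CD8 T cells had 59.9 CPM in IL31RAKO and 96.3 in WT, and regulatory T cells had 70.7 and 101. Macrophages had 29.1 CPM in IL31RAKO and 36.3 in WT. In cDC2 the ratio was 0.645, and it was 1.43 when each cell was thinned to 1000 UMIs.

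Cdk2ap1, the CDK2-associated NuRD subunit, was lower in IL31RAKO in 11 of 11 classes measured. It had 2114 UMIs in IL31RAKO cells and 2326 in WT cells, or 34.4 and 50.3 CPM, a ratio of 0.685 (0.645 to 0.727). Dermal γδ T cells had 22.6 CPM in IL31RAKO and 48.8 in WT (18 and 134 UMIs), the lowest ratio at 0.462. Macrophages had 31.0 and 34.4, the ratio nearest to 1 at 0.902. The interval excluded 1 in 6 classes: these dermal cells, the Cd7 Nkg7 Fcer1g T gate, regulatory T cells, other T cells, cDC2 and CD8 T cells. In log2 terms the class nearest to no change lay at -0.15 for Fam177a and also at -0.15 for Cdk2ap1, just inside the rule, whereas Nnt just missed it at -0.06 in CD4 T cells.

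Dhx29, the scanning helicase, had 575 UMIs in IL31RAKO cells and 574 in WT cells, which at the greater IL31RAKO depth came to 9.37 and 12.4 CPM, a ratio of 0.755 (0.671 to 0.849). Only in CD4 T cells did the interval of a class exclude 1, on 2 IL31RAKO and 12 WT UMIs. CD8 T cells had 12.7 CPM in IL31RAKO and 15.7 in WT, and other T cells had 10.4 and 13.7. Macrophages had 6.73 and 6.63, a ratio of 1.02, and Langerhans cells had 17.8 in IL31RAKO and 12.8 in WT. The gates with a ratio below that of cDC2 (0.957) were those of T cells and monocytes.

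Xlr3b had the lowest pooled ratio of the 9 and the fewest counts: 166 UMIs in IL31RAKO cells and 347 in WT cells, or 2.70 and 7.50 CPM, a ratio of 0.360 (0.298 to 0.435). CD8 T cells had 6.98 CPM in IL31RAKO and 16.7 in WT (40 and 87 UMIs), and other T cells had 4.90 and 10.9 (32 and 84). Regulatory T cells (3 IL31RAKO and 13 WT UMIs), cDC2 (3 and 14) and macrophages (13 and 18) also had intervals below 1. The WT levels of cDC2 (4.37 CPM) and macrophages (4.42) were under the 8.86 of WT barcodes of 51 to 200 UMIs, read as free RNA. Dermal γδ T cells did not share the gap, with 11.3 CPM in IL31RAKO and 10.6 in WT (9 and 29 UMIs), a ratio of 1.07 (0.445 to 2.32). The Xlr cluster holds closely related copies, so reads may have been split or dropped between some of them. The value of any single copy is therefore uncertain.

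**Figure D2:**
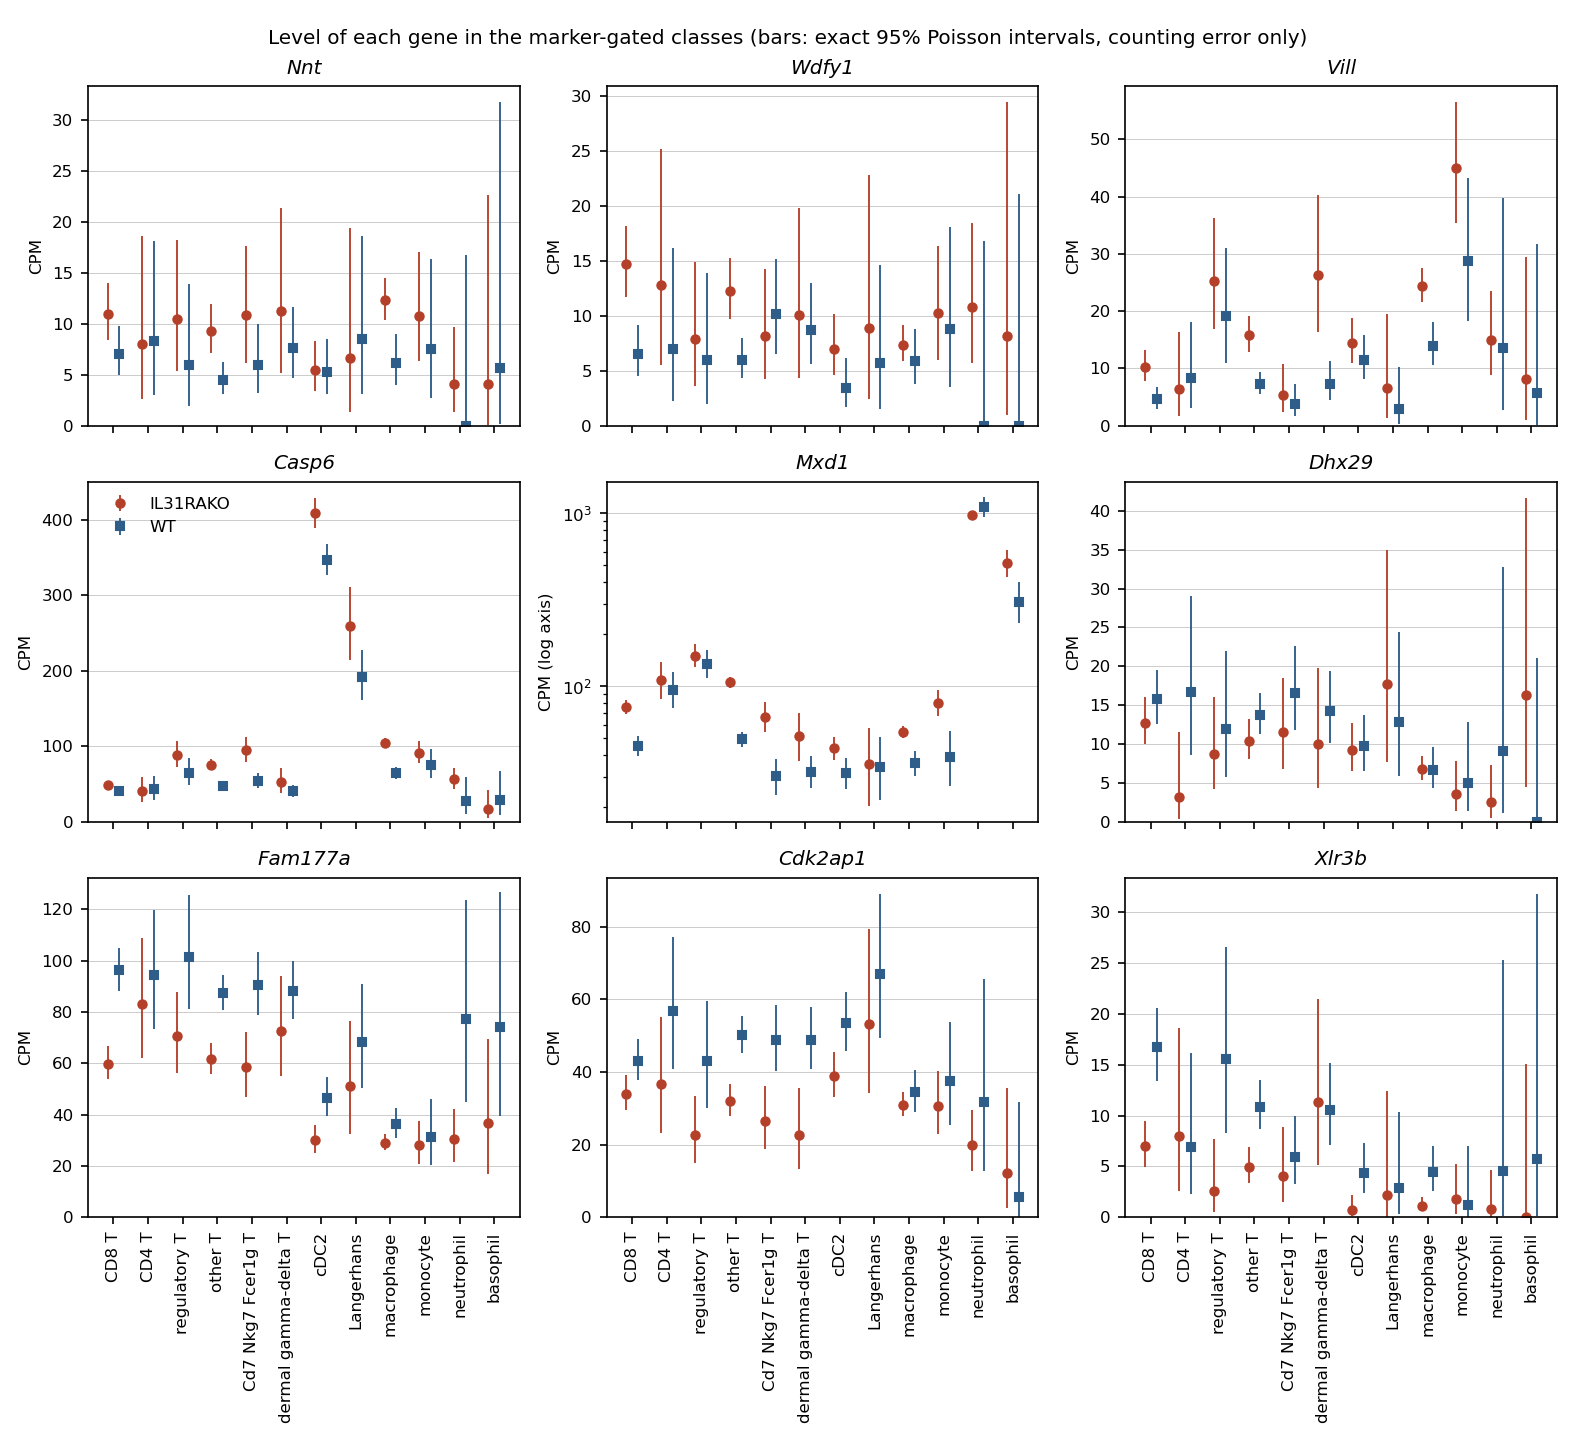
Level of each gene in CPM of the class, with IL31RAKO (red circles) left of WT (blue squares) in each class; bars are exact 95% Poisson intervals, and the Mxd1 axis is logarithmic. Casp6 peaks in cDC2 at 409 and 347 CPM, and Mxd1 in neutrophils at 969.8 and 1090.0, in IL31RAKO and WT.

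The 10 cells with most UMIs of a gene held at most 7.83% of its UMIs in IL31RAKO and 6.48% in WT, over all 9 genes. With every cell thinned to 1000 UMIs, which left out 1439 IL31RAKO and 1300 WT cells, Mxd1 was detected in 10.7% of IL31RAKO cells and 5.20% of WT cells, against 25.5% and 13.9% before thinning. Fam177a was detected in 4.61% of thinned IL31RAKO cells and 6.99% of thinned WT cells (15.3% and 21.2% before), and Xlr3b in 0.341% and 0.724% (1.11% and 2.78% before). Some of the 9 were near the floor in some classes, as with Xlr3b, which had 1 UMI in the neutrophils of each library. No class known to lack the genes was at hand to set a background share.

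The mix of classes also differed between the libraries. Macrophages were 19.9% of IL31RAKO cells and 10.9% of WT cells, dermal γδ T cells 1.51% and 5.04%, and other T cells 13.5% and 19.6%. When the WT levels of every gate were weighted by the IL31RAKO shares of UMIs, this change of mix alone gave a ratio of 1.31 for Mxd1, 1.14 for Vill and 0.866 for Xlr3b, and between 0.914 and 1.04 for the other 6. The ratio left for levels within gates was 1.76 for Nnt, 1.63 for Wdfy1, 1.75 for Vill, 1.29 for Casp6, 1.47 for Mxd1, 0.826 for Dhx29, 0.716 for Fam177a, 0.711 for Cdk2ap1 and 0.416 for Xlr3b. All 9 thus kept their side with this mix held fixed. Cells that passed several gates (27.9% of IL31RAKO UMIs) or none (12.2%) each counted as a gate here. The mix of cells within those groups was not held fixed. With the 12 classes given equal weight Mxd1 had a ratio of 1.17.

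**Figure D3:**
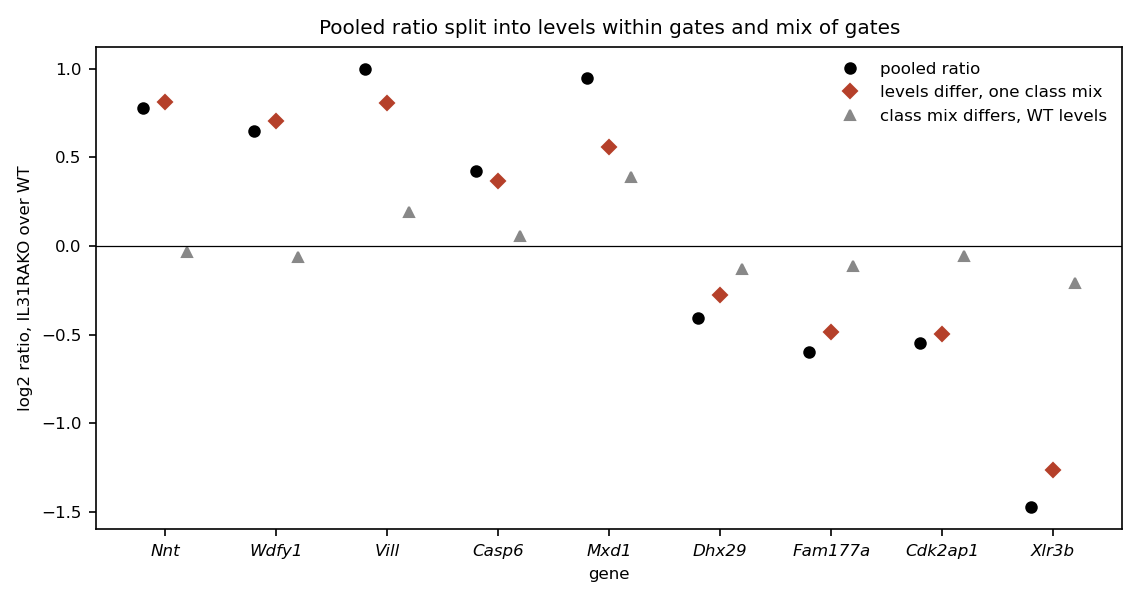
Log2 ratio of IL31RAKO over WT for each gene: the pooled value (black circles), the value with levels differing and a single mix of gates (red diamonds), and the value with WT levels and only the mix differing (grey triangles). The grey triangle is farthest from 0 for Mxd1, at a ratio of 1.31.

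Barcodes too poor in RNA to be cells were read in the same way. Barcodes of 10 to 50 UMIs held just 189990 UMIs in IL31RAKO and 235401 in WT, and gave 10 or more UMIs for only 3 of the genes: Fam177a (11 IL31RAKO and 17 WT UMIs), Mxd1 (13 and 15) and Casp6 (20 and 34), the last against its pooled side. Barcodes of 51 to 200 UMIs, a band chosen after the data were seen, held 5910708 UMIs in IL31RAKO and 6323631 in WT. There all 9 genes lay on their pooled side, with ratios of 1.66 for Nnt, 1.85 for Wdfy1, 1.91 for Vill, 1.16 for Casp6, 1.73 for Mxd1, 0.677 for Dhx29, 0.723 for Fam177a, 0.715 for Cdk2ap1 and 0.287 for Xlr3b. The interval excluded 1 for each but Dhx29. Over 12384 genes in that band, 72.7% lay on their pooled side and 19.7% did so with an interval that excluded 1. In WT the level in this band was above that of kept cells for Fam177a (79.1 and 73.6 CPM) and Vill (9.65 and 8.67). The same held for Xlr3b (8.86 and 7.50) and Wdfy1 (6.96 and 6.40), and not for the other genes. Where a class level is near or under such a value, expression cannot be told apart from free RNA by levels alone. Free RNA of this kind enters every droplet, and its part in the class ratios was not tested beyond subtracting it. With the 51 to 200 UMI profile subtracted 84 of the 93 ratios lay on the pooled side and 9 against it, and with the 10 to 50 UMI profile 83 and 10. Among barcodes removed for 10% or more mitochondrial UMIs, 7 of the 9 genes had a ratio on their pooled side, and Dhx29 (1.16) and Wdfy1 (0.848) did not, against 66% of genes on their pooled side. There the interval excluded 1 for 4 of the 9 (Vill, Mxd1, Fam177a and Xlr3b), as for 12.3% of genes.

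**Figure D4:**
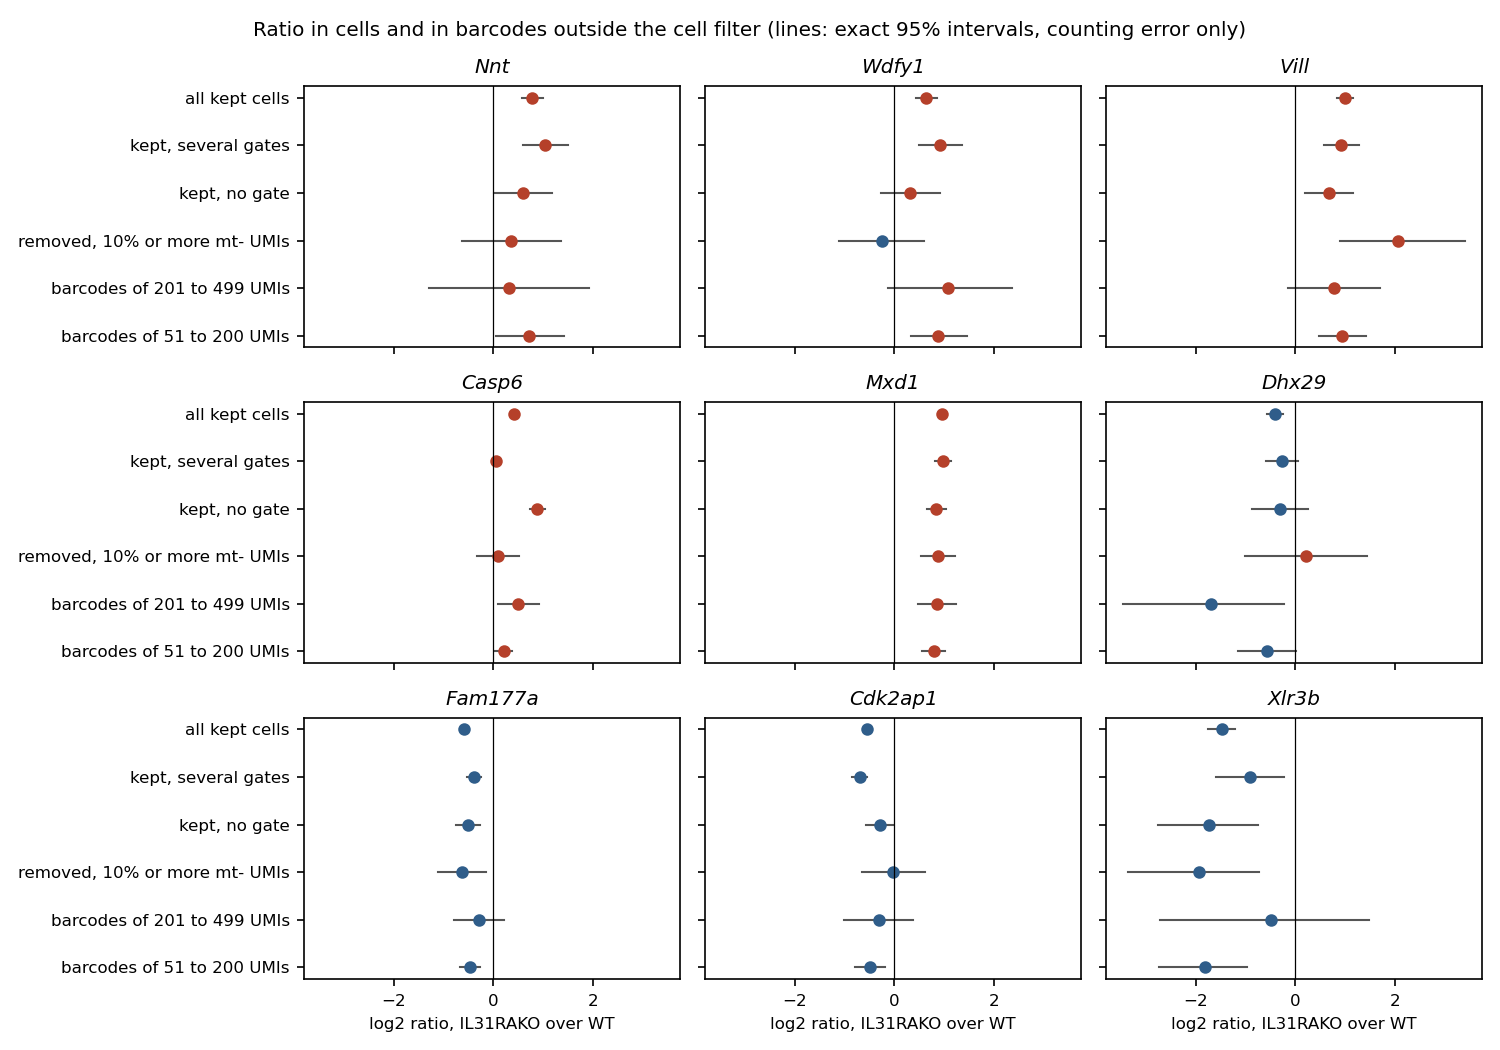
Log2 ratio of IL31RAKO over WT for each gene in kept cells and in barcodes outside the cell filter, with exact 95% intervals as lines. In barcodes of 51 to 200 UMIs the points of all 9 genes lie on the side of all kept cells.

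Genome position was not used to choose the genes. On mm10, Il31ra lies at chr13:112519898-112594360 on the minus strand, and 2 of the 9 lie on the same chromosome. Dhx29, at chr13:112927454-112969432, is 0.333 Mb from it, and Nnt, at chr13:119335448-119408997, is 6.74 Mb away. The others are spread over 7 chromosomes: Wdfy1 at chr1:79702262-79776143, Casp6 at chr3:129901425-129914103, Cdk2ap1 at chr5:124345417-124363082, Mxd1 at chr6:86647042-86669161, Vill at chr9:119052778-119071525, Fam177a at chr12:55124469-55142104 and Xlr3b at chrX:73192207-73202930. Within 10 Mb of Il31ra, 10 of 61 genes with 50 or more UMIs were past 1.5-fold (16.4%), and outside it 13.3% were. None of the 46 window genes measured in 5 or more classes lay on a single side in all of them. The window genes past 1.5-fold besides Nnt were Gzmk (3.91), Ccno (2.65), Gapt (1.63), Zswim6 (1.58), Sgtb (1.56), Depdc1b (0.642), 3110070M22Rik (0.620), Fst (0.598) and Elovl7 (0.528), and the intervals of Sgtb, Depdc1b and 3110070M22Rik included 1. Dhx29 starts 0.056 kb from Skiv2l2, which had a ratio of 0.967, and ends 18.4 kb from Ccno.

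**Figure D5:**
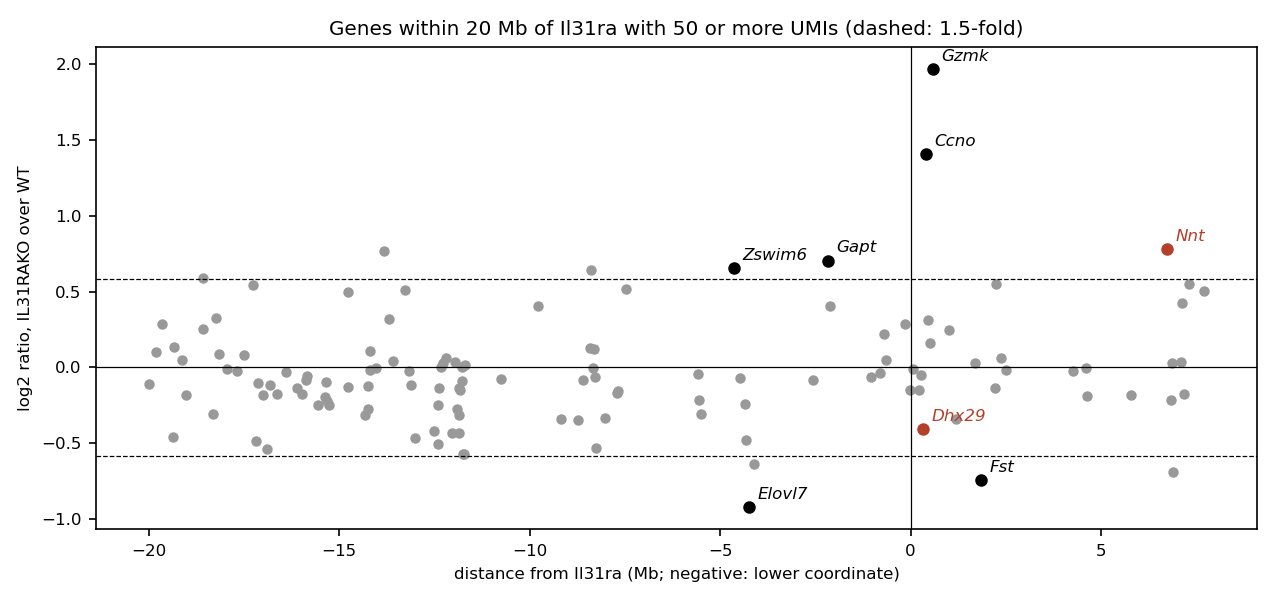
Log2 ratio of IL31RAKO over WT for genes with 50 or more UMIs within 20 Mb of Il31ra, by distance in Mb; dashed lines mark 1.5-fold, red marks Nnt and Dhx29, and black marks other genes within 10 Mb past 1.5-fold with an interval that excludes 1. Gzmk, at a ratio of 3.91, lies 0.577 Mb from Il31ra.

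Among the 36 nearest genes flanking the 9, 5 were past 1.5-fold (13.9%), close to the 13.3% of all genes. A single side in every class measured was held by 2 of the 36 (5.56%), against 3.06% of the genes measured in 5 or more classes. The flanking genes given here were picked after their values were seen. Other genes of the X cluster also had ratios under 1. Xlr4a (0.672, 985 IL31RAKO and 1104 WT UMIs), Xlr4b (0.669, 1016 and 1144) and Xlr4c (0.624, 524 and 633) were read with many more counts than Xlr3b, and Xlr3a had 9 IL31RAKO and 38 WT UMIs. Each had a pooled interval below 1, and these copies can share reads with Xlr3b. By class, ratios were under 1 in 7 of 9 classes measured for Xlr4a and above 1 in 2. They were under 1 in 7 of 11 and above 1 in 4 for Xlr4b, and under 1 in 6 of 8 and above 1 in 2 for Xlr4c. The class interval of Xlr4c excluded 1 in other T cells only (0.768). CD8 T cells had an Xlr4c ratio of 0.892, with an interval that included 1. Fam177a had Srp54b, a signal recognition particle gene, as a neighbour with a ratio of 0.723 (4074 IL31RAKO and 4247 WT UMIs), while Baz1a on its other side had 1.02. Beside Cdk2ap1, Mphosph9 had 0.712, 2810006K23Rik 0.778 and Setd8 0.792. Casp6 was followed by Ccdc109b, a mitochondrial calcium uniporter subunit gene, at 1.29. Mxd1 stood next to Asprv1, a retroviral-like skin protease gene, at 4.58 (736 IL31RAKO and 121 WT UMIs), and Snrnp27 on its other side had 0.906. Wdfy1 had Serpine2 at 3.17 within 18.1 kb. Asprv1 was higher in every class measured, and Serpine2 did not meet that rule. Apart from the class values of the X cluster, all flanking ratios given are pooled over kept cells. The part of the class mix in the pooled ratios was not tested.

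Most genes related to the 9 by function stayed within 1.5-fold. Of 14 other genes of mitochondrial NADPH and thiol redox, 17 others of translation scanning, 15 others of the CDK2-associated and NuRD set and 10 other caspases, 0 were past 1.5-fold in either direction in this comparison without replicates, where 13.3% of all genes were. Of 13 FYVE, WD40 and Toll-like receptor adaptor genes, 3 were past 1.5-fold, all higher: Tlr4 (1.79), the endotoxin receptor, Tlr3 (1.60), the double-stranded RNA receptor, and Wdfy3 (1.57). Among the classes compared, macrophages, 19.9% of IL31RAKO cells and 10.9% of WT cells, held the most of their UMIs. The ratios there were 1.09 for Tlr4 (0.789 to 1.53), 0.571 for Tlr3 (0.334 to 0.995) and 1.37 for Wdfy3 (1.08 to 1.75). Cells that passed several gates, which are not a class, held more Tlr3 UMIs (85 IL31RAKO and 30 WT) than macrophages (38 and 24). Ratios in those cells were 1.58 for Tlr4 (1.08 to 2.35), 1.905 for Tlr3 (1.24 to 2.99) and 1.03 for Wdfy3 (0.814 to 1.32). The part of the class mix in the pooled values of these genes was not tested. Of 6 relatives of Vill, Avil (0.508) and Scin (0.515), both actin-severing proteins, were lower while Vill was higher. Avil was a leading gene of the Cd7 Nkg7 Fcer1g T gate, which was 3.50% of IL31RAKO cells and 7.03% of WT cells. In that gate the ratio was 0.937 for Avil (0.848 to 1.03) and 0.777 for Scin (0.646 to 0.932). Class ratios were under 1 in 7 of 9 classes measured for Avil and in 7 of 8 for Scin. In the MYC network 1 of 11 others was past the fold, Mxd3 at a pooled 0.623, on the other side from Mxd1. Class ratios of Mxd3 were under 1 in 6 of 9 classes measured and above 1 in 3. The interval was below 1 in dermal γδ T cells (0.320) and other T cells (0.417) only. In cells that passed several gates the Mxd3 ratio was 1.13 (0.860 to 1.48). Max, the shared partner, had a ratio of 1.06, and Myc 1.08. The median log2 ratio of the non-members was 0.30 for the Toll-like receptor list and between -0.16 and 0.10 for the other 6 function lists apart from Xlr (-0.58), against -0.10 for all genes.

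For the question of strain, a list of 8 genes known to differ among C57BL/6 substrains held 4 others with 50 or more UMIs. Nlrp12, an inhibitory NOD-like receptor of myeloid cells, had 64 UMIs in IL31RAKO and 15 in WT, a ratio of 3.21 (1.81 to 6.07). Neutrophils, 5.62% of IL31RAKO cells and 1.53% of WT cells, were the single class in which it was measured, with 41 IL31RAKO and 6 WT UMIs and a ratio of 1.25 (0.527 to 3.60). Cyfip2 had 0.772, Ide 1.02 and Fgfbp3 1.12. The list also holds Nnt and Wdfy1, so its members past the fold are not independent of the choice of genes. Among 4 Dynlt1 paralogs, dynein light chain copies that can share reads, Dynlt1b had 2.78 (586 IL31RAKO and 159 WT UMIs) and Dynlt1a 1.77, while Dynlt1f had 1.32 and Dynlt1c 1.12. For the question of handling, 3 of 18 dissociation stress genes were past 1.5-fold, all lower in IL31RAKO: Hspa1b (0.605), Hsph1 (0.626) and Fosb (0.659). Of all genes, 13.3% were past 1.5-fold either way and 7.92% on the lower side. Over all kept cells 7 of the stress genes were higher and 11 lower. Among the higher, Egr1 (1.44) and Zfp36 (1.24) were each higher in 10 of 12 classes. Hsp90aa1 was lower in each class measured (0.820 pooled), and the median log2 ratio of the stress list was -0.11, beside -0.10 for all genes. The list leaned unlike ways by class. In Langerhans cells 0 stress genes were higher and 15 lower, in macrophages 4 and 14 and in CD4 T cells 3 and 13. In dermal γδ T cells 13 were higher and 4 lower, and in basophils 9 and 4. The counts were 8 and 10 in other T and regulatory T cells, and 8 and 9 in the Cd7 Nkg7 Fcer1g T gate. CD8 T cells and cDC2 had 5 and 12, monocytes 6 and 10, and neutrophils 5 and 10. The median log2 ratio of all genes lay between -0.07 (dermal γδ T cells) and 0.03 (macrophages) in the classes. Shares of all genes higher or lower by class were not counted. Strain of origin and handling were not recorded beyond the labels, so they cannot be told apart from genotype here.

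The genes most like the 9, among the 96 higher and 120 lower non-members with 200 or more UMIs on a single side in every class measured and in free RNA, were ranked by the shift nearest to 0 over those classes. The 5 highest were Folr2, Ltf, Klrg1, Retnlg and Cd200, and the 5 lowest P2rx2, Asic3, Galnt3, E2f8 and Pdzk1. Each of these but Klrg1, measured in 8 classes, was measured in only 5 or 6 of the 12. Folr2, a macrophage folate receptor (1000 IL31RAKO and 167 WT UMIs, ratio 4.51), and the neutrophil genes Retnlg (3909 and 357, ratio 8.25) and Ltf (393 and 102, ratio 2.90) mark classes that were a larger share of IL31RAKO cells. Folr2 and Retnlg were also among the markers used for those gates, so the gating itself bears on their class values. P2rx2, an ATP-gated channel, had 288 IL31RAKO and 668 WT UMIs, a ratio of 0.325, and Asic3, an acid-sensing channel, had 315 and 561, a ratio of 0.423. Fam177a and Cdk2ap1, measured in 12 and 11 classes, had shifts nearer to 0 than any of these. Of the 3387 genes measured in all 12 classes, 1.98% lay on a single side throughout them.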

How the data were processed

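Per the labels' protocols, CD45+ cells were sorted, 30000 per group entered the Chromium 3′ v2 workflow, and 3′ libraries were made. The deposited values are raw UMI counts, whole numbers per gene and barcode over all 737280 listed barcodes, empty droplets included. The submitters' processing notes name Cell Ranger 3.1, Seurat 3.2.2 and mm10, without a role for each. The counts on these barcodes were filtered here to 500 or more UMIs, 250 or more genes and under 10% mt- UMIs, which removed 1550 IL31RAKO and 1868 WT barcodes at the last step. Doublets were kept, and removed in an alternative with Scrublet in scanpy 1.11.5. Cells were gated by detected markers. Those that passed several gates (2058 IL31RAKO and 1397 WT) or none (2658 and 2116) were not compared as classes. They entered the pooled values and the mix of gates, and are given apart where named. B cells, cDC1, mature dendritic cells, mast cells, keratinocytes, fibroblasts and endothelial cells had under 50 cells in at least 1 library and were not compared. The gates are rebuilt and may differ from the cell types of the study.

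UMIs were summed per gate and library and scaled to a total of 1000000 (CPM). A ratio is IL31RAKO over WT with an exact 95% interval, computed in Python 3.11.15 with NumPy 2.4.6, SciPy 1.17.1 and pandas 2.3.3. With 1 library a group no test between groups was made and no p-value is given; functions were tested on simulated data. Positions came from GENCODE on mm10 (27645 of 27998 gene identifiers matched) and promoters from RefSeq. The genes, the function lists and the rules were chosen with earlier results of these data known. Named genes are the 9, the 5 highest and 5 lowest like genes (with sex-linked, haemoglobin, mitochondrial, ribosomal and antigen receptor genes and those without a name left out), window genes past 1.5-fold, Il31ra, list members past 1.5-fold, and flanking genes, some of which were named after their values were seen. Alternatives were another cell filter, mitochondrial limit, doublet removal, scaling, totals, free-RNA subtraction, cell weighting, gating and thinning.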

Additional observations from a re-analysis of the deposited data

Results flagged for a closer look

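Barcodes outside the cell filter enter none of the class comparisons. In the band of 51 to 200 UMIs 5 of the 9 genes had ratios above 1 with intervals that excluded 1; over all genes 19.7% had an interval that excluded 1 on the side of their pooled ratio. Ratios in free RNA were part of how the genes were chosen, so these values are no added support. In barcodes of 51 to 200 UMIs the ratio of IL31RAKO over WT was 1.66 for Nnt (48 and 31 UMIs), 1.85 for Wdfy1 (76 and 44), 1.91 for Vill (109 and 61), 1.16 for Casp6 (563 and 520) and 1.73 for Mxd1 (418 and 258). Among barcodes removed for their mitochondrial share, Vill had a ratio of 4.19 (29 IL31RAKO and 8 WT UMIs) and Mxd1 1.84 (189 and 119). Among these barcodes 12.3% of all genes had an interval that excluded 1 on the side of their pooled ratio. There Nnt (1.28) and Casp6 (1.06) had intervals that included 1, as did Wdfy1, at 0.848. In barcodes of 10 to 50 UMIs Casp6 had 0.729, also with an interval that included 1. These libraries have no replicates, so none of these differences was tested.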

How the results depend on the processing

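All 108 pooled ratios computed under alternatives kept their side of 1, and 85 stayed within the counting interval of the value reported. Thinning to 1000 UMIs gave 1.44 for Nnt, 1.31 for Wdfy1, 0.620 for Cdk2ap1, 1.22 for Casp6, 2.31 for Mxd1 and 0.465 for Xlr3b. Scaling by the median gene ratio gave 0.711 for Fam177a, 0.735 for Cdk2ap1, 1.44 for Casp6 and 2.07 for Mxd1. A mean over cells gave 1.21 for Casp6 and 2.20 for Mxd1, and doublet removal 0.626 for Fam177a. Equal weight for the classes, an alternative added after seeing the data like the next 2, gave 1.44 for Nnt, 0.854 for Dhx29, 1.60 for Vill, 1.17 for Mxd1 and 0.498 for Xlr3b. With the class mix held fixed Fam177a had 0.716, Vill 1.75, Casp6 1.29 and Mxd1 1.47. Leaving out neutrophils gave 1.76 for Mxd1.

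Of 897 class ratios, 1 whose interval excluded 1 turned round: Fam177a in cDC2, at 1.43 after thinning. Genes on a single side in every class numbered 170 after thinning, which left 7604 genes measured. Of the 9, 4 lay on a single side under the 5% mitochondrial limit, doublet removal, the mean over cells and the minimum of 20 UMIs, 5 under gating by highest marker score, and 0 after thinning. The share of genes near Il31ra past 1.5-fold was 32.2% with no minimum and 8% at 200 UMIs. The ratio of detected shares was 0.793 for Cdk2ap1 and 1.84 for Mxd1 without thinning, and 1.72 for Mxd1 at 2000 UMIs. The causes were not tested. No paired analysis was possible because each group has a single library. For the same reason no replicate could be left out. The gate does not enter the pooled ratio. Depth limits the class values of Nnt, Dhx29, Wdfy1, Vill and Xlr3b.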
